A study of Mus musculus with 18 samples.

Results

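The 9 genes described here encode sensors of ER stress, transcription factors made active by mRNA splicing or by cleavage, and the proteases of that cleavage. The genes are Ern1, Eif2ak3, Atf6, Xbp1, Mbtps1, Mbtps2, Creb3, Creb3l1 and Creb3l2. They were taken by name from the 20207 genes listed for each sample, and all 9 were among the 12731 genes tested, those with 1 read or more in each of the 18 samples. The samples are mRNA-seq libraries of NIH3T3 cells, a mouse embryonic fibroblast line, that stably express DD-sfGFP, a destabilizing domain fused to superfolder GFP. All 6 groups carry this transgene as a pool of cells sorted for high GFP, and all were kept with the ligand S1, which holds the domain folded. The reference cultures (control) were not stressed and are labelled 0 min. HS cultures were heat-stressed for 45 or 135 min, and Tu cultures were under ER stress from tunicamycin for 45, 135 or 405 min. Each group has 3 samples. Among these groups none was left unstressed to a later time. Stress and time since the start therefore cannot be told apart in comparisons with the control. Nothing in the labels says that the replicates were separate cultures, so p-values measure the spread between these samples, which may in part be technical.

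The branches of the unfolded protein response start from proteins in the ER membrane. Ern1 encodes IRE1, a kinase and endoribonuclease that removes an intron from Xbp1 mRNA and so lets the active factor XBP1 be made. Eif2ak3 encodes PERK, the kinase that phosphorylates the initiation factor eIF2alpha. Atf6 encodes a membrane-bound precursor that travels to the Golgi under stress, where the proteases encoded by Mbtps1 and Mbtps2 release its DNA-binding part. The same proteases cut the sterol-responsive SREBP factors and the CREB3 family, of which Creb3, Creb3l1 (also called OASIS) and Creb3l2 (also called BBF2H7) are members, and which is known in fibroblasts, bone and cartilage for genes of collagen secretion. Tunicamycin blocks N-linked glycosylation and is widely used to start all of these branches. The counts are per gene, so spliced and unspliced Xbp1 mRNA, and phosphorylated or cleaved proteins, are not distinguished here.

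Among these genes, an ER stress response element was found only at the start of Xbp1. Windows of 300 bases, from 250 before to 50 after the gene start that the deposited files give, were read from the mm9 genome for the 7 of 9 genes with an entry in RefSeq's promoter table (all but Atf6 and Creb3l1). They were searched on both strands for the ER stress response element ERSE, which has the letters CCAAT and CCACG with 9 free bases between them and which ATF6 binds together with the factor NF-Y, and for its core CCACG, which the longer element contains. ERSE occurred in 20 of 13055 such windows (0.153%) and the core alone in 39.3%. The sequences of the Xbp1, Ern1 and Eif2ak3 windows follow, since Xbp1 and Ern1 were called at 45 min of tunicamycin and Eif2ak3 only at 405 min (below), with matches in capitals and 5′ to 3′ on the strand of the gene.
Xbp1: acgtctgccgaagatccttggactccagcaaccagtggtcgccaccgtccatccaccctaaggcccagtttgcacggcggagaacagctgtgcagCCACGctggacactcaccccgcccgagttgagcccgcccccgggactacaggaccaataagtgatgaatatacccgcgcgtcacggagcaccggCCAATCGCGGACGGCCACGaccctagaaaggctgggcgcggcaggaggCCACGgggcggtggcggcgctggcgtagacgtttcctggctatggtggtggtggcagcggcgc
Ern1: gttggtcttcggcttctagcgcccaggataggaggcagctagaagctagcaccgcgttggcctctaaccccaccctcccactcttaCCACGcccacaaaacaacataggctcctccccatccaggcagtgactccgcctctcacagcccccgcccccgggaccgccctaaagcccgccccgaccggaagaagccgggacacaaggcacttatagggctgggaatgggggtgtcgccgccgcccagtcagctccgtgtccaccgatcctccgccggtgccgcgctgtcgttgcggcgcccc
Eif2ak3: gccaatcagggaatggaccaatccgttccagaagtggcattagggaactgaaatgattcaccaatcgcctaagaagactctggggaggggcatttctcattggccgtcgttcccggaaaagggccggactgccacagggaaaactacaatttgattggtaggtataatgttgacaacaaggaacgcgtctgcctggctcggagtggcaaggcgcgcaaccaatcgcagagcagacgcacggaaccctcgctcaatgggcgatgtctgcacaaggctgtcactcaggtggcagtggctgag
In the Xbp1 window (mm9 chr11:5420720-5421019, plus strand) the element CCAATCGCGGACGGCCACG lay 61 to 43 bases before the start, and the core occurred 3 times, 1 of them inside it. The Ern1 window (chr11:106349061-106349360, minus strand) held 1 core, 164 to 160 bases before the start, and the Eif2ak3 window (chr6:70794271-70794570, plus strand) held no match. Creb3 held 3 cores, Mbtps1 2, and Mbtps2 and Creb3l2 none. Whether any of these matches bears on the time of a call was not tested. No window of the 7 held the ERSE-II form (ATTGG and CCACG, 1 free base apart) (0.0460% of windows), the UPR element core TGACGTGG (0.751%), the C/EBP-ATF element TGATGNAA (3.16%) or a heat shock element, here GAA, TTC and GAA in turn with 2 free bases between them, or TTC, GAA and TTC likewise (0.475%). RefSeq's own table on GRCm38.p6 places the Xbp1 window over other bases, in which no motif was found, and the windows at the files' starts were chosen after this was seen.

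The libraries held 33415592 to 66478268 counted reads, so that 3 reads correspond to 0.0451 to 0.0898 CPM (counts relative to library size), a floor for counting error only. All 9 fibroblast markers examined (Col1a1, Col1a2, Col3a1, Vim, Fn1, Thy1, Pdgfra, Pdgfrb and S100a4) were detected in every sample. The summed level of 7 markers of other cell types was at most 0.159 RPKM (the authors' unit, reads relative to transcript length and library size), with a median of 0 for Epcam, Ptprc, Myog and Alb. The fibroblast markers summed to 9189 to 9678 RPKM in the controls, 10390.3 to 11624 at HS 45 min, 10359 to 12072 at HS 135 min, 7680.3 to 9072 at Tu 45 min, 8551 to 9693 at Tu 135 min and 4329.9 to 4830.2 at Tu 405 min, and the part of this fall in the results at 405 min was not tested. Samples of the same group also differed in how genes of high and low GC content were counted. This GC contrast, the mean log2 level (relative to each gene's mean over the 18 samples) of genes in the upper quartile of transcript GC minus that of the lower quartile, was 1.10, 1.31 and -0.45 at HS 45 min, -0.48, 1.41 and 0.22 at HS 135 min, 0.72, -0.36 and -0.35 at Tu 135 min, and between -0.73 and 0.07 in the 9 other samples.

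In unstressed cells the protease gene Mbtps1 was the most abundant of the 9 per transcript length, at 46.6 ± 3.43 RPKM (SD, n = 3 here and below), above all samples of the others. Creb3l1 followed with 21.3 ± 1.68 RPKM, Xbp1 with 20.8 ± 2.28 RPKM and Creb3l2 with 17.7 ± 2.89 RPKM, and the samples of neighbours in this order overlapped. Creb3, at 10.5 ± 1.81 RPKM, overlapped with Atf6, at 9.64 ± 0.969 RPKM. The kinase genes were low, with 5.42 ± 0.466 RPKM for Eif2ak3 and 3.69 ± 0.0825 RPKM for Ern1, and Ern1 overlapped with the other protease gene, Mbtps2, at 3.17 ± 0.842 RPKM. After 405 min of tunicamycin the order had changed: Xbp1 was first with 88.7 ± 4.78 RPKM, apart from Creb3l2 (43.5 ± 2.76) and Creb3l1 (40.3 ± 1.29), which overlapped each other, and Mbtps1 came next with 31.9 ± 3.06 RPKM. At HS 135 min Creb3l1 was first, at 62.3 ± 16.3 RPKM and apart from Mbtps1 at 33.0 ± 2.90 RPKM.

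**Figure D1:**
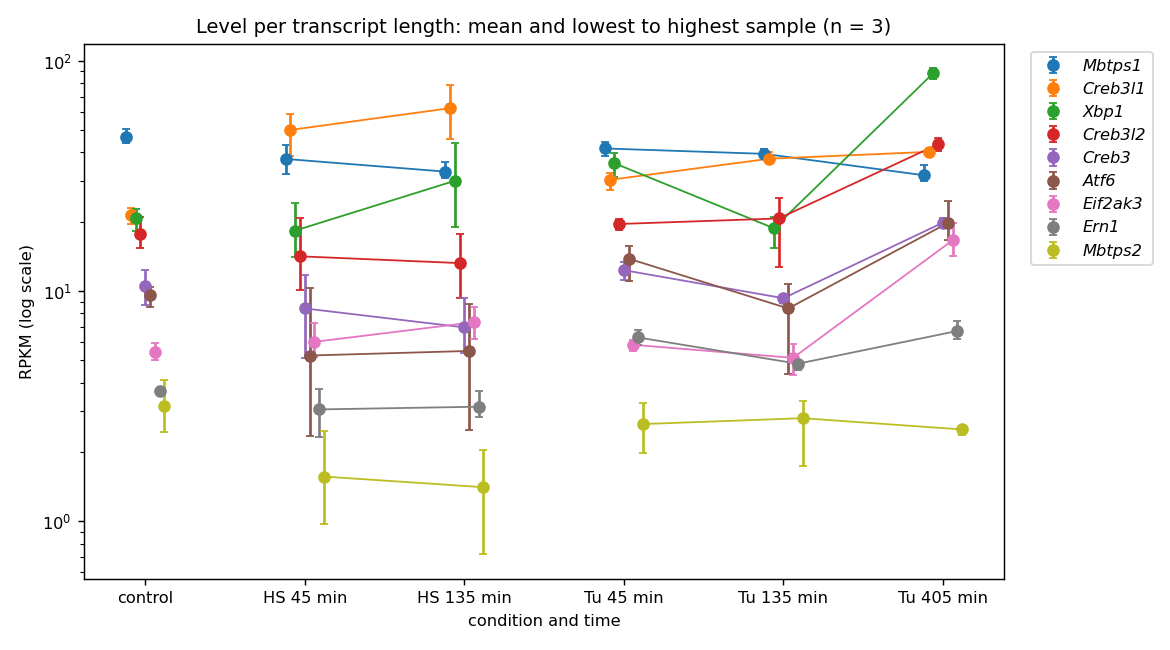
Level per transcript length (RPKM, log scale) of the 9 genes in each condition; points are means, bars run from the lowest to the highest of 3 samples, and lines join times of the same stress. Xbp1 rises above all others at Tu 405 min (88.7 RPKM), while Creb3l1 leads at HS 135 min (62.3 RPKM).

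Of the 9 genes, 7 were induced and 1 was repressed after 405 min of tunicamycin. The exceptions were the protease genes, as Mbtps1 fell and Mbtps2 did not pass the test. Genes are called induced or repressed at an adjusted p under 0.05 in the quasi-likelihood test of edgeR, adjusted by Benjamini-Hochberg over all 12731 genes, which is the source of every adjusted p given here unless another tool is named. Many genes changed at this time, 23.3% of all genes tested being induced and 23.5% repressed, and the median log2 fold change was 1.01 over the 9 genes and -0.01 over all genes. All comparisons with the control share the same 3 control samples, and in such bulk samples fewer cells of a type and less RNA per cell cannot be told apart.

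Xbp1 (mm9 chr11:5420970-5425875) made the largest rise of the 9. It was at 40.1, 45.0 and 46.4 CPM in the controls and at 191, 188 and 208 CPM at Tu 405 min. Every stressed sample lay far above every control, with a log2 fold change of 2.18 (SE 0.121, adjusted p = 1.45e-05), which is 4.53-fold. Eif2ak3 (chr6:70794521-70855234), the gene of PERK, rose from 27.6, 27.4 and 30.4 CPM to 105, 89.3 and 79.7 CPM, without overlap, by 1.70 on the log2 scale (SE 0.139, adjusted p = 6.86e-05). The gene of IRE1, Ern1 (chr11:106258934-106349110), rose less. Its controls had 17.9, 17.4 and 16.4 CPM and its Tu 405 min samples 34.8, 30.8 and 32.4 CPM, 1.93-fold higher (log2 fold change 0.95, SE 0.121, adjusted p = 5.36e-04). Atf6 (chr1:172634588-172797902), the third sensor, was at 78.0, 85.6 and 88.7 CPM in the controls and at 217, 155 and 169 CPM at Tu 405 min, again with no overlap. Its log2 fold change was 1.12 (SE 0.151, adjusted p = 6.70e-04), and this call was lost in the shared fit of all 6 groups (adjusted p = 0.0615).

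All 3 CREB3 family genes were induced at 405 min. Creb3l2 (chr6:37281021-37392139) rose the most, from 84.5, 64.2 and 57.9 CPM to 172, 168 and 189 CPM, a log2 fold change of 1.38 (SE 0.166, adjusted p = 4.00e-04). The Creb3 gene (chr4:43575506-43579932) also rose, with 16.8, 19.5 and 22.2 CPM in the controls against 35.5, 41.2 and 38.9 CPM (2.01-fold, adjusted p = 8.85e-04). Its last 131 bases overlap Gba2 on the opposite strand, and strand use in counting is not given in the sources used here. Creb3l1 (chr2:91822485-91864327) also reached 2.01-fold, from 63.6, 56.0 and 50.7 CPM to 105, 117 and 115 CPM (adjusted p = 6.07e-04). In all 3 genes each Tu 405 min sample lay above each control. The 7 rises were also called when any 1 of the 6 samples was left out.

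The protease genes did not follow. Mbtps1 (chr8:122032055-122082627), which encodes the site-1 protease that makes the first cut in ATF6, fell from 267, 221 and 223 CPM to 182, 163 and 162 CPM. The groups did not overlap, and the log2 fold change was -0.47 (SE 0.130, adjusted p = 0.0187), 1.38-fold lower. This call was lost without Tu 405 min replicate 2 (adjusted p = 0.0846) and without Tu 405 min replicate 3 (adjusted p = 0.0833). Mbtps2 (chrX:153985754-154036647), the site-2 protease gene, had 24.0, 16.5 and 13.4 CPM in the controls and 14.8, 14.3 and 15.2 CPM at Tu 405 min, with a log2 fold change of -0.26 (SE 0.215, adjusted p = 0.340). The stressed samples lay within the range of the controls, and the span of Mbtps2 contains the gene Yy2 on the same strand, so reads could have been split between them.

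**Figure D2:**
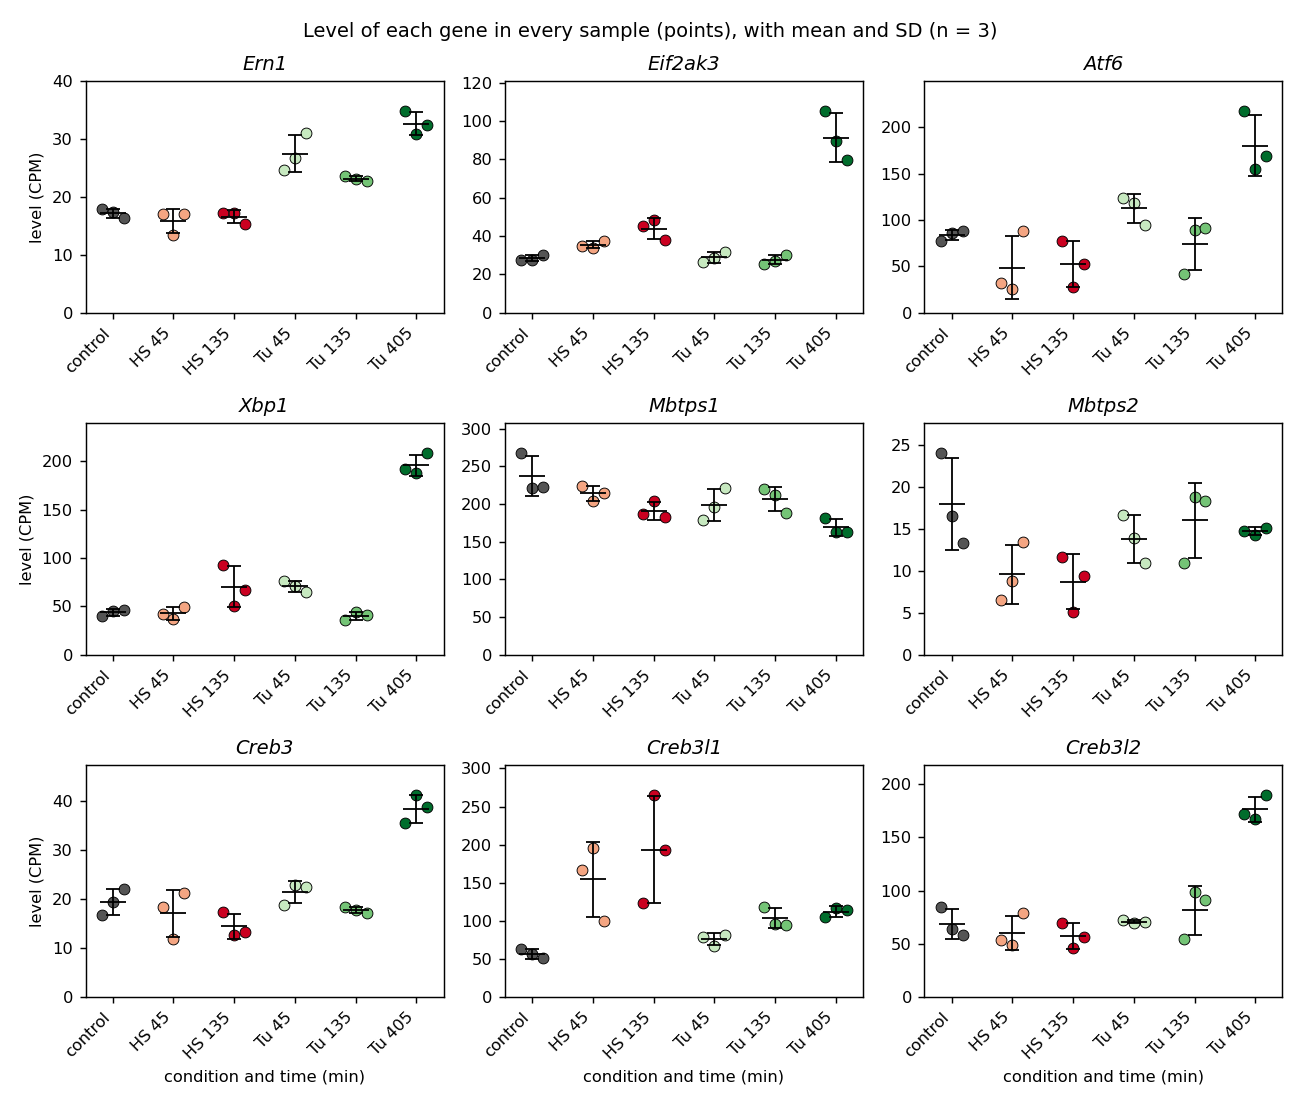
Level (CPM, scaled by TMM over the 18 samples) of each gene in each sample (points) by condition and time, with mean and SD of 3 samples as bars; every axis starts at 0. At Tu 405 min all 3 samples of 7 genes lie above the controls, Mbtps1 lies below them, and Xbp1 is also raised at Tu 45 min (64.9 to 76.1 CPM) and back at control level at Tu 135 min.

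Earlier times of tunicamycin gave a different picture. At 45 min 2 of the 9, Xbp1 and Ern1, were induced, where 4.01% of all genes were induced and 2.17% repressed. Xbp1 was at 76.1, 71.4 and 64.9 CPM, above all controls (log2 fold change 0.71, SE 0.134, adjusted p = 0.0273). Ern1 was at 24.7, 26.8 and 31.0 CPM, also above all controls (log2 fold change 0.69, SE 0.137, adjusted p = 0.0311). Leaving out 1 sample kept the direction but lost the Xbp1 call in 4 of 6 fits (without control replicate 2 or 3, or Tu 45 min replicate 1 or 2, adjusted p up to 0.158) and the Ern1 call in 5 of 6 (without any of these or without Tu 45 min replicate 3, adjusted p up to 0.172). Blocking on replicate number also ended both calls (adjusted p = 0.159 for Xbp1 and 0.172 for Ern1), with the GC offset too (0.0702 and 0.0609). Eif2ak3, at 26.3, 28.6 and 31.7 CPM, had a log2 fold change of 0.03 (SE 0.129, adjusted p = 0.903) at the same time. Atf6, at 124, 119 and 95.1 CPM, lay above all controls without passing the test (log2 fold change 0.44, adjusted p = 0.117), and so did Creb3l1, at 78.6, 67.3 and 81.7 CPM (log2 fold change 0.43, adjusted p = 0.108). Atf6 was called there with the GC offset (adjusted p = 0.0277), and Creb3l1 with total counts (0.0446) and without control replicate 1 (0.0301).

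At 135 min of tunicamycin none of the 9 was called, and only 0.126% of all genes were induced and 0.00785% repressed, against 1288 genes higher and 1081 lower at an unadjusted p under 0.05. Blocking on replicate number, edgeR called 0 of the 12731 genes in this comparison. Xbp1 was at 36.1, 44.6 and 40.8 CPM, overlapping the controls (log2 fold change -0.10, SE 0.175, adjusted p = 0.805). Ern1 stayed above all controls at 23.6, 23.1 and 22.8 CPM without passing the test (log2 fold change 0.44, SE 0.168, adjusted p = 0.223). Creb3l1, at 119, 96.3 and 95.0 CPM, had the largest difference of the 9 (log2 fold change 0.88, SE 0.173, adjusted p = 0.0946), and the DESeq2 Wald test did call it. The other members lay between -0.18 and 0.26 on the log2 scale.

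The steps between times were tested directly. From 45 to 135 min none of the 9 was called, where 0.118% of all genes rose and 0.173% fell. All 3 Xbp1 samples at 135 min lay below those at 45 min, with a log2 fold change of -0.80 (SE 0.143, adjusted p = 0.0897). Among the alternatives the DESeq2 Wald test, the offset for GC content (adjusted p = 0.0461) and the fit without Tu 135 min replicate 1 (adjusted p = 0.0459) called this fall. From 135 to 405 min 6 of the 9 rose, where 21.4% of all genes rose and 22.4% fell: Xbp1 by 2.25 (SE 0.137, adjusted p = 4.82e-05), Eif2ak3 by 1.70 (SE 0.152, adjusted p = 1.74e-04), Atf6 by 1.26 (SE 0.294, adjusted p = 0.0110), Creb3 by 1.10, Creb3l2 by 1.09 and Ern1 by 0.47 on the log2 scale. The Ern1 call (adjusted p = 0.0179) was lost in 5 of the 6 fits that left out 1 sample (adjusted p up to 0.0759), all but the one without Tu 135 min replicate 1. Creb3l1 was not among the 6, with a log2 fold change of 0.10 (SE 0.138, adjusted p = 0.594) between 135 and 405 min. Mbtps1 had a log2 fold change of -0.31 (adjusted p = 0.0780) over the same step and Mbtps2 of -0.14 (adjusted p = 0.628).

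**Figure D3:**
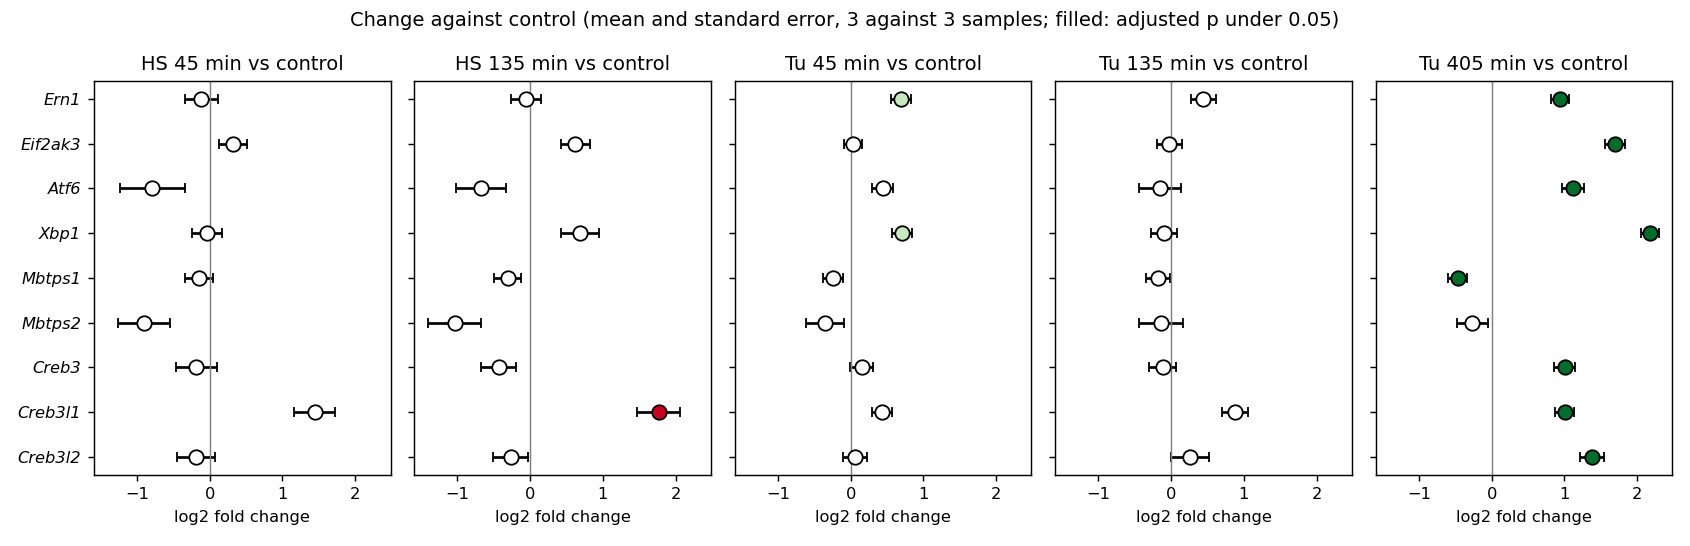
Log2 fold change against the control (horizontal axis; points with standard error, 3 against 3 samples) of the 9 genes in the 5 stress conditions, with filled points where the adjusted p was under 0.05. Filled points are Creb3l1 at HS 135 min, Ern1 and Xbp1 at Tu 45 min, and all but Mbtps2 at Tu 405 min, where Mbtps1 lies left of 0.

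Under HS, Creb3l1 was the only member called. At HS 135 min it was at 123, 265 and 193 CPM, all above the controls, a log2 fold change of 1.77 (SE 0.296, adjusted p = 0.0204), where 4.75% of all genes were induced and 2.64% repressed. At HS 45 min it was at 167, 195 and 100 CPM, also above all controls, with a log2 fold change of 1.44 (SE 0.281, adjusted p = 0.227). At that time edgeR called 0% of genes in either direction (1568 higher and 912 lower at an unadjusted p under 0.05), and the DESeq2 Wald test called 386 genes higher and 65 lower, Creb3l1 among them (adjusted p = 0.00311). Leaving out control replicate 2 (adjusted p = 0.110), control replicate 3 (0.118) or HS 135 min replicate 3 (0.116) lost the call at HS 135 min, while the log2 fold change stayed between 1.51 and 2.01 over the 6 fits that left out 1 sample. Blocking on replicate number gave an adjusted p of 0.143. At HS 45 min the difference was called without replicate 3, the library of low GC contrast in that group (log2 fold change 1.68). That fit called 2737 genes higher and 3049 lower.

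The Creb3l1 level moved with the GC contrast of the samples. Its transcript has the highest GC content of the 9 (59.5%), and in 5 of the 6 groups the sample with the highest GC contrast also had the highest Creb3l1 level. With an offset for GC content the log2 fold change was 1.30 (SE 0.132, adjusted p = 0.00431) at HS 135 min and 0.80 (SE 0.129, adjusted p = 0.122) at HS 45 min. HS 45 min replicate 3 and HS 135 min replicate 1, whose GC contrasts (-0.45 and -0.48) lie within the range of the controls, had 100 and 123 CPM, above the highest control at 63.6 CPM. Atf6, whose transcript has 45.8% GC, moved the other way, being lowest in the sample of highest GC contrast in 5 of 6 groups. The same count, 5 of 6, held for Xbp1, whose transcript has 53.0% GC, and the part of the GC contrast in these results was not tested further than by the offset. Atf6 was at 32.5, 25.5 and 87.8 CPM at HS 45 min (log2 fold change -0.79, SE 0.448, adjusted p = 0.308) and at 77.3, 27.6 and 53.0 CPM at HS 135 min (-0.68, SE 0.348, adjusted p = 0.228), so that the samples of each HS group ranged over more than the difference of their mean from that of the controls. Without HS 45 min replicate 3, which had the lowest GC contrast of its group, Atf6 was called lower at HS 45 min (log2 fold change -1.54), as was Mbtps2 (-1.23). In that fit 2737 of the 12731 genes were called higher and 3049 lower, against 0 and 0 with all samples. With all samples Mbtps2 had a log2 fold change of -0.90 (adjusted p = 0.243) at HS 45 min, and -0.47 (adjusted p = 0.440) with the GC offset.

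**Figure D4:**
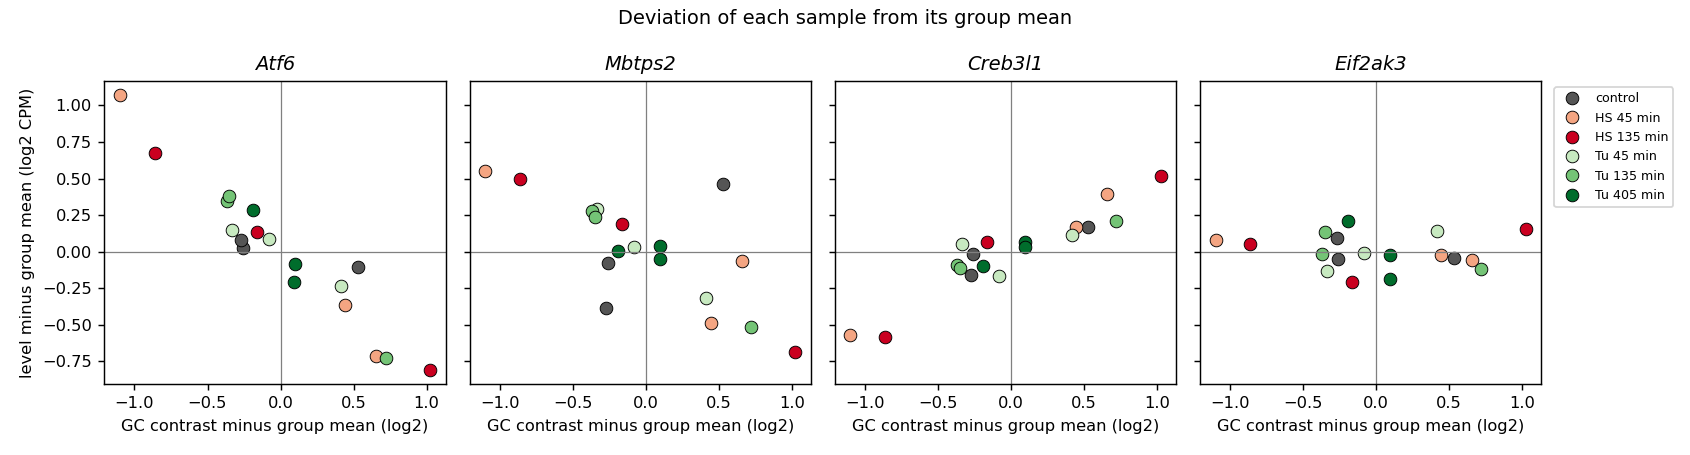
Deviation of each of the 18 samples from its group mean in GC contrast (horizontal, log2) and in the level of 4 genes (vertical, log2 CPM). Atf6 falls and Creb3l1 rises along the horizontal axis, Mbtps2 falls with exceptions among the controls and in the HS 45 min and Tu 405 min groups, and Eif2ak3 shows no such trend.

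The other members gave no call under HS. Eif2ak3, whose transcript has 51.2% GC, was at 45.2, 48.4 and 37.8 CPM at HS 135 min, above all controls, with a log2 fold change of 0.62 (SE 0.201, adjusted p = 0.0911). The offset for GC content left its size at 0.62 and brought it past the threshold (adjusted p = 0.0290), as did the shared fit of all 6 groups (adjusted p = 0.00565). Xbp1 was at 93.3, 50.9 and 67.1 CPM at HS 135 min, also above all controls (log2 fold change 0.69, SE 0.256, adjusted p = 0.125), and at 42.0, 36.8 and 49.8 CPM at HS 45 min, overlapping them. At HS 135 min it was called in the shared fit (adjusted p = 0.0151) and without HS 135 min replicate 2 (log2 fold change 0.90, adjusted p = 0.0312). Ern1 stayed near its control level, with 17.3, 17.2 and 15.3 CPM at HS 135 min (log2 fold change -0.05, SE 0.208, adjusted p = 0.884). Mbtps2 was at 11.6, 5.12 and 9.43 CPM at HS 135 min, below all controls (log2 fold change -1.04, SE 0.369, adjusted p = 0.112). Its transcript has the lowest GC content of the 9 (40.0%), and with the GC offset the log2 fold change was -0.70, while the shared fit called it lower (adjusted p = 0.0326). Mbtps1, Creb3 and Creb3l2 had log2 fold changes of -0.31, -0.43 and -0.27 at HS 135 min, all with an adjusted p above 0.26.

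HS and tunicamycin were also compared at matched times, and none of the 9 was called at 45 min (0.0628% of all genes higher under HS and 0.141% lower) or at 135 min (1.3% and 0.817%). The largest difference at 45 min was that of Atf6, lower under HS in all samples (log2 fold change -1.22, SE 0.470, adjusted p = 0.189). Ern1 was also lower under HS in all samples, by a log2 fold change of -0.79 (SE 0.184, adjusted p = 0.120), and so was Xbp1 (-0.73, SE 0.178, adjusted p = 0.124). At 135 min Ern1 was again lower in all samples (-0.51, SE 0.184, adjusted p = 0.189). Creb3l1 was higher under HS in all samples at both times, by 1.02 (SE 0.262, adjusted p = 0.131) at 45 min and by 0.88 (SE 0.289, adjusted p = 0.156) at 135 min. With the GC offset these differences were 0.43 (adjusted p = 0.101) and 0.66 (adjusted p = 0.0240). At 135 min Eif2ak3 and Xbp1 were also above all tunicamycin samples, by 0.64 (SE 0.197, adjusted p = 0.133) and 0.77 (SE 0.258, adjusted p = 0.161). The shared fit of all 6 groups called Creb3l1 higher and Ern1 and Xbp1 lower under HS at 45 min. At 135 min it called Eif2ak3, Xbp1 and Creb3l1 higher and Ern1 lower. Over all genes it called 719 higher and 551 lower at 45 min and 998 and 773 at 135 min. Times without a matching HS group were not compared between the stresses.

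Close relatives outside the 9 were read in the same way. Atf6b, the gene of the second ATF6 protein, was at 127, 130 and 121 CPM in the controls and at 156, 183 and 179 CPM at Tu 405 min, a smaller rise than that of Atf6 (log2 fold change 0.48, SE 0.118, adjusted p = 0.0115). Creb3l4 was scarce, at 0.502, 0.339 and 0.503 CPM in the controls, and rose to 1.45, 1.45 and 1.87 CPM at Tu 405 min (log2 fold change 1.86, SE 0.253, adjusted p = 7.18e-04). Like Xbp1, it lay above all controls at Tu 45 min (0.787, 0.755 and 0.868 CPM, adjusted p = 0.0775) and overlapped them at Tu 135 min. Ern2, the IRE1 gene of epithelial tissues, had 0 to 4 reads in any sample and could not be compared at this depth.

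Creb3l3, a family member known from liver and intestine, had 1, 1 and 2 reads in the controls and 34, 66 and 85 reads at HS 135 min. Per total reads this was a ratio of 34.9, with an exact 95% counting interval of 13.4 to 129, which covers counting error only. It was left out of the main test because 1 Tu 135 min sample had no read, and without the filter edgeR gave an adjusted p of 0.00510. At HS 45 min it had 4, 8 and 5 reads and under tunicamycin 0 to 8 reads in every sample, of which 6, 8 and 6 at Tu 405 min also passed the test without the filter (log2 fold change 1.94, adjusted p = 0.0332). RefSeq's own table on GRCm38.p6 places a Creb3l3 window over the same bases as the window shown here, and another over other bases. The latter held no heat shock element and 2 CCACG cores. The window at the files' start is shown because it was the only one of the 10 windows read for members and relatives to hold a heat shock element, which lies 39 to 27 bases before the start (mm9 chr10:80561568-80561867, minus strand).
Creb3l3: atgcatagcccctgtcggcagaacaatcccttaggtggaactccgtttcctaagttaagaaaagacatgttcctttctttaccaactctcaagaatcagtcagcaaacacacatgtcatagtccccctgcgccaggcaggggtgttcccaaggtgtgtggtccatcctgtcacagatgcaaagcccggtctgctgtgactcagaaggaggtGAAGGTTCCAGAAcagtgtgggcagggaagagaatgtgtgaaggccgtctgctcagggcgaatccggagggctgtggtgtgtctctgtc

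Genes downstream of the sensors were counted from lists of known targets. Of 20 targets of ATF6 and XBP1, all 20 were induced at Tu 405 min (23.3% of all genes), with a median log2 fold change of 3.29. The ER genes with the smallest p were Creld2 (2314 against 67.3 CPM, log2 fold change 5.13), Herpud1 (1554 against 58.4 CPM, 4.76), which acts in ER-associated degradation, and the cochaperone gene Sdf2l1 (872 against 26.2 CPM, 5.08). At Tu 45 min 1 of the 20 was induced and 1 repressed, near the 4.01% and 2.17% of all genes, and at Tu 135 min none was called. Under HS for 135 min 7 of the 20 were induced (4.75% of all genes), led by Herpud1 (368 CPM, log2 fold change 2.66, adjusted p = 0.00534), with Sdf2l1 (1.56, adjusted p = 0.0185) and Syvn1 (1.88, adjusted p = 0.0185), the gene of the ubiquitin ligase HRD1.

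Of the 11 tested targets of the PERK branch, 8 were induced at Tu 45 min, 1 at Tu 135 min, 10 at Tu 405 min and 6 at HS 135 min, against 4.01%, 0.126%, 23.3% and 4.75% of all genes, with medians of 0.95, 0.91, 1.48 and 1.57 on the log2 scale. Blocking on replicate number left 0 calls at Tu 135 min, as for all genes. Over all genes it left 21 higher and 0 lower at Tu 45 min, and 0 and 0 at HS 135 min. Without control replicate 3, 79 genes were higher and 17 lower at Tu 45 min, and 10 and 1 at HS 135 min. Without control replicate 1 these were 1391 and 1108, and 350 and 192. The lists were counted only in the fits with all samples and no block. Eif2ak3 itself had a log2 fold change of 0.03 at Tu 45 min, as above. Whether PERK or another input raised the listed genes was not tested. At Tu 405 min the stress factor gene Atf3 rose from 1.03 to 93.1 CPM (log2 fold change 6.52), Ddit3, the gene of CHOP, from 71.9 to 2630 CPM (5.22), and Trib3, an inhibitor of ATF4 and AKT, from 47.9 to 408 CPM (3.11). At HS 135 min Atf3 reached 50.9 CPM, Ddit3 359.9 CPM and Chac1, a glutathione-degrading enzyme, 333 CPM against 39.1 CPM in the controls.

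Of 7 mRNAs known as substrates of IRE1 decay, 6 were repressed and none induced at Tu 405 min. The median log2 fold change was -0.89 and the highest 0.24. Scara3 was the lowest, at 12.0 against 62.9 CPM in the controls (log2 fold change -2.37), followed by the growth factor receptor gene Pdgfrb (72.2 against 323 CPM, -2.15) and Pmp22 (39.6 against 81.7 CPM, -1.02). Among all genes 23.5% were repressed at this time, and Pdgfrb is also one of the fibroblast markers. After HS for 135 min Scara3 alone was repressed (24.8 CPM, log2 fold change -1.34, adjusted p = 0.0199), while Col6a1 (1.07, adjusted p = 0.0585) and Pmp22 (0.45, adjusted p = 0.163) lay above the controls without passing the test.

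Of 7 collagen and COPII genes known as CREB3 family targets, 4 were induced and 2 repressed at Tu 405 min, the latter near the 23.5% of all genes that were repressed (23.3% were induced). The COPII coat genes Sec24d (360 against 149 CPM, log2 fold change 1.30), Sec23b (135 against 53.8 CPM, 1.35) and Sec31a (653 against 382 CPM, 0.79) had the smallest p. At HS 135 min, where Creb3l1 was called, none of the 7 was, the collagen genes Col1a2 (log2 fold change 0.96, adjusted p = 0.0798) and Col1a1 (1.21, adjusted p = 0.0801) being the nearest, with Sec24d at 0.57 (adjusted p = 0.134). Col1a1 and Col1a2 also belong to the fibroblast markers.

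Of 14 tested partners of the sensors, 8 were induced and 2 repressed at Tu 405 min, where 23.3% of all genes were induced and 23.5% repressed, so the share repressed was not above that of all genes. Sel1l, the adaptor of HRD1, rose to 884 from 119 CPM (log2 fold change 2.92), and Dnajc3, the gene of a cochaperone that inhibits PERK, to 466 from 42.4 CPM (3.48). Insig1, which holds the SREBP escort SCAP in the ER and so limits SREBP cutting by the same proteases, fell to 40.4 from 198 CPM (log2 fold change -2.27). Under HS for 135 min 3 of the 14 were induced (4.75% of all genes), namely Syvn1, Atf4 (1430.0 against 480.1 CPM, log2 fold change 1.57, adjusted p = 0.0201), the factor translated when eIF2alpha is phosphorylated, and Ppp1r15b (0.88, adjusted p = 0.0388), a regulator of the eIF2alpha phosphatase. Several genes stand in more than 1 list (Dnajc3, Sel1l, Syvn1, Wfs1, Atf4 and Sec24d), so the lists are not independent.

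**Figure D5:**
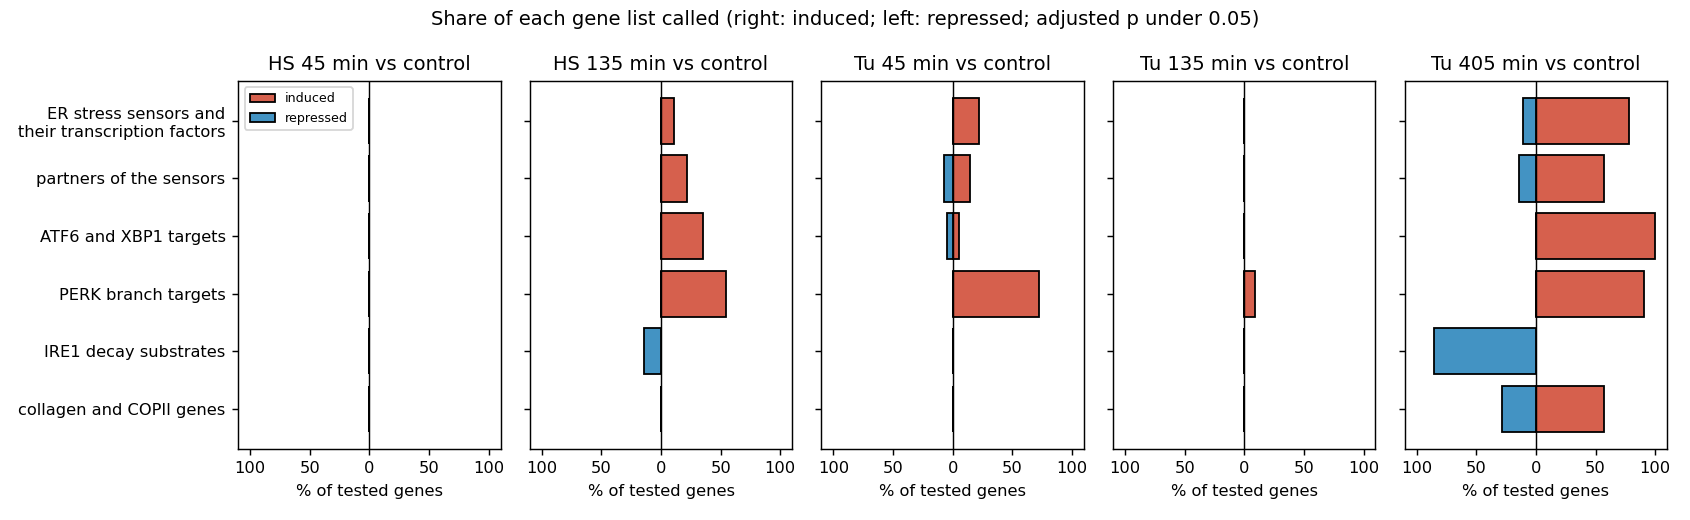
Share of the tested genes of each list called induced (right, red) or repressed (left, blue) against the control, for the 5 stress conditions; both directions are in percent. At Tu 405 min all 20 ATF6 and XBP1 targets are induced and 6 of 7 IRE1 decay substrates repressed, while at Tu 45 min the PERK branch targets (8 of 11) stand out.

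The genes whose levels ran most like those of 8 of the 9, all but Mbtps2, were found by Pearson's r of log2(RPKM + 1) over the 18 samples, which share the same groups and the same differences in GC contrast. Eif2ak3 ran most like Manf (0.96), Ccdc134 (0.96) and Pdia6 (0.96), of which Manf and Pdia6 are ER stress targets, and Xbp1 most like Stbd1 (0.98), Bcat1 (0.97) and Car6 (0.97). Ern1 was nearest to Tnfaip2 (0.98), Hemk1 (0.96) and Pvr (0.95), and Atf6 to Ibtk (0.98), Jak2 (0.98) and Cyld (0.98). For the protease gene Mbtps1 these were Mars (0.95), S1pr2 (0.94) and Acvr1b (0.94). Creb3 was nearest to Smap1 (0.97), U2af1 (0.97) and Acad8 (0.97), Creb3l1 to 6030419C18Rik (0.94), Igfbp6 (0.94) and Clip3 (0.94), and Creb3l2 to Nktr (0.96), Tm9sf4 (0.96) and Ppapdc1b (0.95). Among the 9 themselves r was highest between Eif2ak3 and Xbp1 (0.89), Atf6 and Creb3 (0.89) and Atf6 and Creb3l2 (0.89), and lowest between Mbtps1 and Creb3l1 (-0.79).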

How the data were processed

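Poly(A) RNA of 18 samples was sequenced and, per the labels and the study's methods, aligned to mm9. RefSeq genes were then counted through DNAnexus. The aligner, the counter, their versions and strand use are not given in the sources used here. The authors deposited for every gene its estimated counts without normalization, given to 4 significant digits. Between 17.7% and 23.2% of the low values were not whole. The authors also deposited RPKM, made from the count, gene length and library total. The authors made a standard score and a signal scaled by root mean square from RPKM within each library, and neither was used here. Estimated counts were joined by gene name and rounded to whole numbers. For 741 genes the coordinates differ between files, but for none of the 9.

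Comparisons were fitted pairwise, 3 samples against 3, using edgeR 4.0.16 under R 4.3.3 (TMM, quasi-likelihood test, two-sided, adjusted by Benjamini-Hochberg over 12731 genes with at least 1 read in all 18 samples). The standard error is the log2 fold change divided by the square root of F. CPM values are scaled by TMM over the 18 samples. RPKM was used for levels between genes and for likeness. The fits of HS 135 min and Tu 405 min against the control were also run on simulated data with known changes. Each gene was drawn independently there, so the spread that genes share along GC content was not simulated. The members, lists and tests were chosen with earlier results of these data known. All 9 members and 4 relatives are named, and of each list up to 3 genes with the smallest p at Tu 405 min and at HS 135 min. The list genes Rtcb and Ppp1r15a, which the files hold under older symbols, were not analysed here. The genes most like Mbtps2 are not reported here.

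Same-numbered samples deviated together in each pair only between Tu 135 min and control (correlations of 0.29, 0.24 and 0.19), so only there could the numbers from the labels pair the samples. The values given for Tu 135 min come from the fit without a block. With the block, edgeR gave an adjusted p of 0.123 for Ern1 and 0.0694 for Creb3l1. Replicate 1 had the highest GC contrast in both groups (0.07 and 0.72), and its part in these correlations was not tested. Replicates differed by more than sampling noise in every pair. GC content came from GENCODE transcripts on the same build, for 96.7% of genes. Alternatives were DESeq2 1.42.0 size factors, total counts without TMM, no filter, filterByExpr, the DESeq2 Wald test, the replicate block, 1 fit shared by the 6 groups, an offset for GC content by lowess (span 0.3), block and offset together, and leaving out each replicate. The GC offset also removes true differences that follow GC content.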

Additional observations from a re-analysis of the deposited data

Results flagged for a closer look

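For 6 of the 9 genes the change from the control differed between 135 and 405 min of tunicamycin, as the direct comparison of these times in edgeR's quasi-likelihood test passed the threshold. The difference in log2 level was 2.25 for Xbp1, 1.70 for Eif2ak3, 1.26 for Atf6, 1.10 for Creb3, 1.09 for Creb3l2 and 0.47 for Ern1, each higher at 405 min in all 3 samples.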

How the results depend on the processing

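Each log2 fold change of the 9 genes in the 9 comparisons was recomputed under 15 alternatives. Of 1215 values 1129 kept direction and side of the threshold, 26 lost the call, 41 gained it and 19 reversed. Reversals other than by leaving out a sample were of small values: Mbtps2 at Tu 135 min (0.11 with block and GC offset), Mbtps1 from Tu 45 to 135 min (-0.049 with total counts), and, for HS against Tu at 45 min, Mbtps1 (-0.17 with total counts) and Mbtps2 (0.010 with the GC offset).

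Counts of members called moved as follows. With the DESeq2 Wald test 1 was induced at HS 45 min (Creb3l1) and 1 at Tu 135 min (Creb3l1), 1 was repressed from Tu 45 to 135 min (Xbp1), 1 was higher and 2 lower in HS than Tu at 45 min, and 1 was higher at 135 min. Over all 12731 genes that test called 386 higher and 65 lower at HS 45 min and 329 and 336 at Tu 135 min. From Tu 45 to 135 min it called 323 and 294. For HS against Tu it called 748 and 379 at 45 min and 715 and 541 at 135 min. The shared fit gave 1 induced at HS 45 min, 6 at Tu 405 min (Atf6 lost), 3 induced and 1 repressed at HS 135 min, 1 higher and 2 lower in HS than Tu at 45 min, and 3 higher and 1 lower at 135 min. Over all genes the shared fit called 925 higher and 420 lower at HS 45 min and 1829 and 1414 at HS 135 min. At Tu 405 min it called 2008 and 2049. For HS against Tu it called 719 and 551 at 45 min and 998 and 773 at 135 min. With the GC offset 2 were induced at HS 135 min, 3 at Tu 45 min (Atf6 added, and with total counts also 3, Creb3l1 added), 1 was repressed from Tu 45 to 135 min, 1 from Tu 135 to 405 min (Mbtps1, also with total counts, 1), and 2 were higher and 1 lower in HS than Tu at 135 min. Over all genes the offset called 138 higher and 130 lower from Tu 45 to 135 min and 3366 and 3354 from Tu 135 to 405 min. For HS against Tu at 135 min it called 819 and 642. Total counts gave 878 and 180 at Tu 45 min, and 2390 and 3073 from Tu 135 to 405 min. With the replicate block 0 were induced at HS 135 min, and 0 at Tu 45 min with or without the GC offset (0). Over all genes the block lowered the calls at HS 135 min from 605 higher and 336 lower to 0 and 0, and at Tu 45 min from 510 and 276 to 21 and 0, although the numbers do not pair these samples by the check. At Tu 405 min there were 2691 and 2579 calls with the block and 2965 and 2995 without it. The GC offset raised the calls at HS 135 min to 1438 and 1204, at Tu 45 min to 1039 and 923 and at Tu 135 min from 16 and 1 to 166 and 117. The causes were not tested.

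Leaving out 1 sample gave 0 to 1 induced and 0 to 2 repressed members at HS 45 min, 0 to 2 induced at HS 135 min, 0 to 3 induced at Tu 45 min, 0 to 1 repressed at Tu 405 min, 0 to 1 repressed from Tu 45 to 135 min, 0 to 2 repressed from Tu 135 to 405 min, and 0 to 1 higher and 0 to 5 lower in HS than Tu at 45 min (5 without HS 45 min replicate 3: Ern1, Atf6, Xbp1, Mbtps2 and Creb3l2). Without that replicate 3416 of all 12731 genes were called higher and 3671 lower in HS than Tu, against 8 and 18 with all samples. Against the control, 2737 genes were called higher and 3049 lower without it. Values that changed sign spanned -0.15 to 0.067 (Xbp1) and -0.37 to 0.024 (Creb3) at HS 45 min, -0.087 to 0.0027 (Ern1) at HS 135 min, -0.027 to 0.094 (Eif2ak3) and -0.053 to 0.23 (Creb3l2) at Tu 45 min, -0.10 to 0.044 (Eif2ak3), -0.33 to 0.13 (Atf6) and -0.32 to 0.12 (Mbtps2) at Tu 135 min, -0.46 to 0.0069 (Mbtps2) at Tu 405 min, and -0.13 to 0.018 (Eif2ak3) and -0.0093 to 0.14 (Mbtps1) from Tu 45 to 135 min. With 3 samples a group and GC contrasts that vary within HS and Tu 135 min, small changes of Atf6, Mbtps2 and Creb3l1 were hard to resolve there. Depth limits Ern2, Creb3l3 and Creb3l4.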
